A study of Arabidopsis thaliana with 4 samples.

Results

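The plastid genome of Arabidopsis thaliana encodes core subunits of the photosynthetic machinery, and 35 of these genes were measured here as a group. The members are the plastid genes named psa (photosystem I), psb (photosystem II), pet (cytochrome b6f complex), atp (ATP synthase) or rbc (Rubisco), with the assembly factor genes ycf3 and ycf4. RefSeq lists 35 plastid genes of that kind, and each had 1 probe set of its own among the 22810 of the array, so none is missing. They make up 35 of the 69 plastid genes with a probe set of their own, and 35 of 13286 genes over the whole array that a probe set names alone. All 35 passed the filter on dim probe sets, no value lay below the floor of 14.5, and no probe set was marked by the array design as shared with other sequences.

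Seedlings of the accession La-er were grown on soil at 16 or 22 °C, under white light with a photon flux of 100 micromoles per square metre and second. The red to far-red photon ratio (R:FR) was 4.4 throughout in the high R:FR groups and 0.1 for the last 24 h in the low R:FR groups, and harvest was at 5 days. All groups were mutants of the photoreceptor phytochrome A, labelled phyA-2 for 3 samples and phyA, with the same citation, for the low R:FR sample of 16 °C. There is therefore no plant with intact phytochrome A in the series, and each of the 4 conditions has 1 array, with the number of plants per array unstated. RNA was taken from cotyledons and some hypocotyl. Every comparison below sets single arrays against each other and has no replicate check.

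In chloroplasts, light drives electrons from photosystem II through the cytochrome b6f complex to photosystem I, and the proton gradient formed on the way powers ATP synthase. The large reaction centre and catalytic subunits of these complexes, and the large subunit of Rubisco, the carbon-fixing enzyme, are made in the plastid, while many smaller subunits are encoded in the nucleus. Plastid genes lie mostly in operons that are transcribed as long precursors and then cut and trimmed with the help of nuclear-encoded RNA-binding proteins. Photosynthesis genes are read mainly by a bacterial-type RNA polymerase that needs nuclear-encoded sigma factors. Light rich in far-red excites photosystem I more than photosystem II, and in several plants the balance of the photosystems is known to feed back on plastid transcription.

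Signals are linear intensities, and changes are given as log2 of the signal ratio. The local SD beside a change is the spread of the log2 changes of the 500 measured probe sets nearest in mean signal. It describes probe sets of like brightness and is not an error between plants. Transcripts spiked in at hybridization (18 probe sets) had SDs of 0.21 and 0.23 for the log2 differences between light conditions at 16 and 22 °C, and of 0.21 for temperature in either light. Their signals ran from 34.5 to 3280, and 25 of the 35 members had all signals within that range. The lowest signals of petD, atpI, petN, psbT, psaC and ycf3 lie below it, so these SDs do not cover their largest changes. Signals of atpB, atpE, psbM and petB reach above it. The median signal of an array was between 36 and 40.6. A sign of RNA and label quality is the log2 ratio of 3' to 5' signal, whose mean over 6 control pairs was, at 16 °C, 0.82 in high and 0.54 in low R:FR. At 22 °C it was 0.73 and 0.64. This ratio was higher in high R:FR at both temperatures, as member signals were mostly lower there, and its part in the results was not tested. Of the fixed markers of green tissue only RCA, the gene of Rubisco activase, had a named probe set, with signals of 3872 to 4327. The other listed markers with a named probe set were EXPA7 (5 to 15.8, at or near the floor), PYK10 (1083 to 2913, lowest in low R:FR at 16 °C) and FAMA (63.2 to 78.6). EXPA7 and PYK10 were listed for root and FAMA for guard cells. Whether PYK10 is confined to roots in such seedlings, and the part of these markers in the results, was not tested. In such bulk samples, fewer green cells, fewer plastids per cell and less RNA per plastid cannot be told apart. Plastid mRNAs have no stable poly(A) tail, while the array maker's standard labelling primes from oligo(dT), so a signal need not follow the amount of a plastid transcript, and this was not tested.

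**Figure D1:**
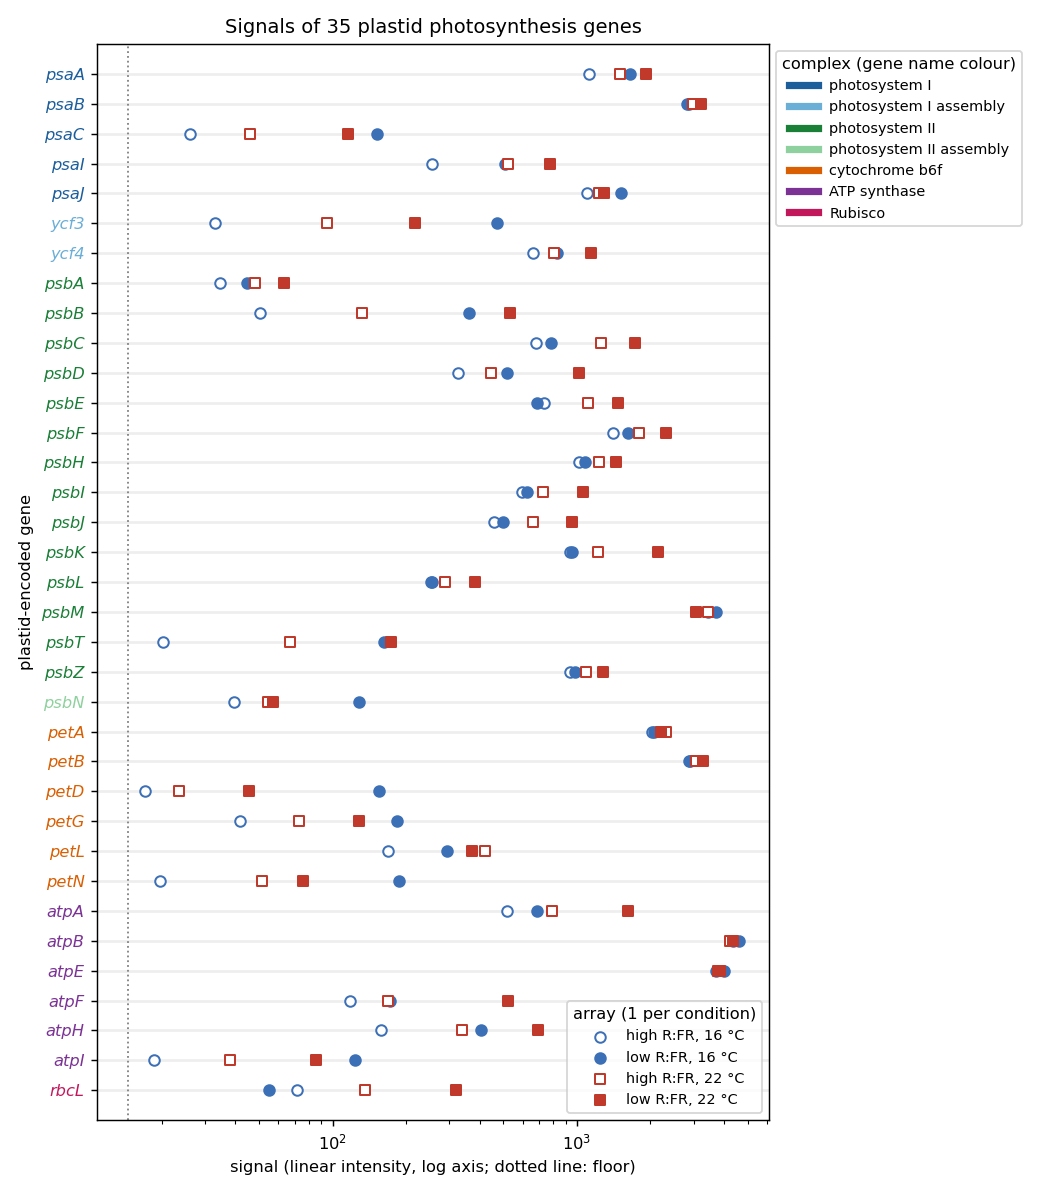
Signals of the 35 plastid photosynthesis genes on a log axis, with 1 point per gene and array: circles for 16 °C, squares for 22 °C, open for high and filled for low R:FR. The open circle, high R:FR at 16 °C, is the lowest point for 30 of the 35 genes, and the spread between arrays is wide for dim genes such as petD (17 to 154) and narrow for bright ones such as atpB (4250 to 4591).

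Across the 4 arrays, the high R:FR array of 16 °C had the lowest signal for 30 of the 35 genes. Over all 13648 measured probe sets that array was the lowest for 28%. Over all 68 measured plastid genes it was the lowest for 53 (77.9%), so this trait is not particular to the members. The low R:FR array of 22 °C was the highest for 22 of the 35 genes and the low R:FR array of 16 °C for 11. As shares of the members these are 62.9% and 31.4%, against 30.6% and 26% of all measured probe sets, so only the first is far from its background. Over all measured plastid genes they were 58.8% and 32.4%. The high R:FR array of 16 °C was the highest for none of the members. The plot of signals by gene shows this order, and also that genes differ widely in how far their 4 signals lie apart.

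The first comparison set the light conditions against each other at 16 °C. In low R:FR 10 of the 35 members were 2-fold or more above their signal in high R:FR and 0 were as far below it. The background, the share of all measured probe sets past that fold, was 1.84% higher and 2.89% lower. The median log2 change was 0.37 for the members and 0.01 for all measured probe sets, and 32 of the 35 lay above 0. At 22 °C, on 2 other arrays, 10 genes were again at least 2-fold higher and 0 lower. The background there was 1.01% higher and 0.498% lower, the median was 0.50 against 0.01, and 31 of 35 lay above 0. The higher members are 28.6% at each temperature. Of all 68 measured plastid genes, 27.9% were at least 2-fold higher at 16 °C and 26.5% at 22 °C, so this trait is not particular to the members. The members past 2-fold were partly different ones at the 2 temperatures. They were atpH, atpI, ycf3, psbB, psbT and psaC at both temperatures, petN, petG, psbN and petD at 16 °C alone, and atpA, atpF, psbD and rbcL at 22 °C alone. The other 21 members did not pass 2-fold at either temperature. Under some alternative processing, atpA, atpH and atpI fell short of 2-fold at 22 °C.

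**Figure D2:**
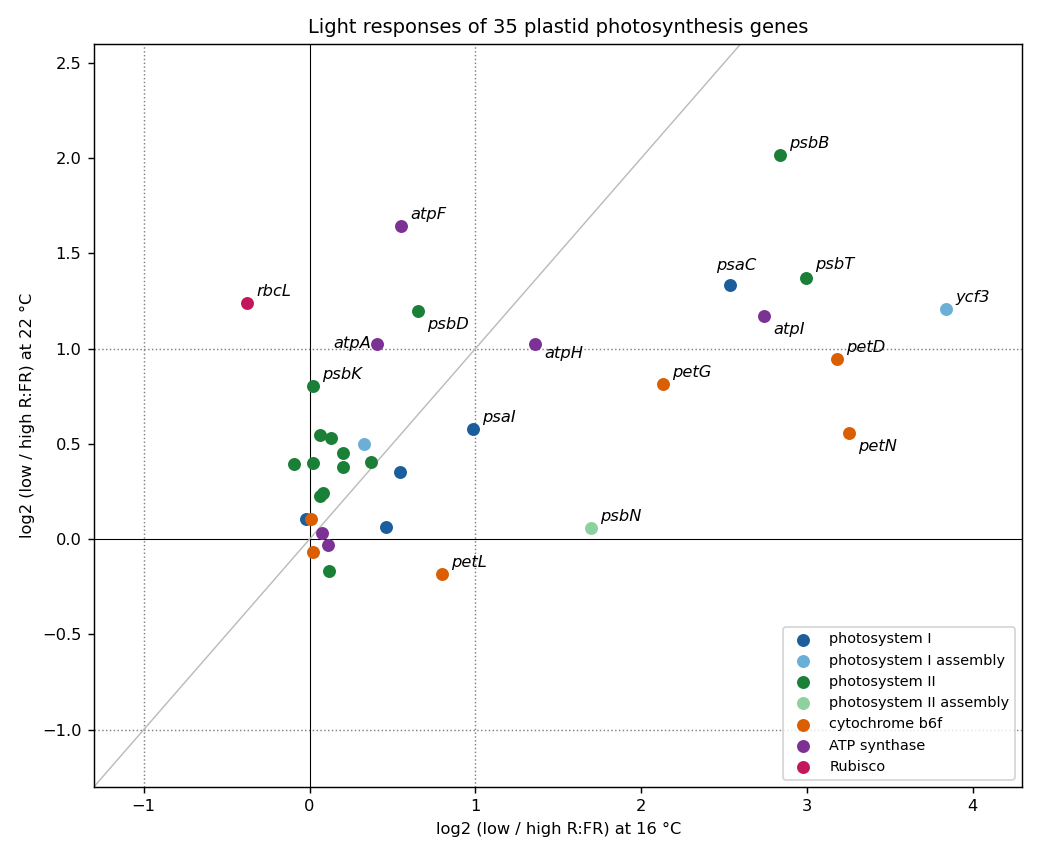
Log2 ratio of low to high R:FR at 16 °C (x axis) and at 22 °C (y axis), 1 point per gene, coloured by complex; dotted lines mark 2-fold and the grey line equal responses. In all, 10 genes lie right of 1 on the x axis and 10 above 1 on the y axis, psbB is the highest at 22 °C (2.02) and ycf3 at 16 °C (3.84), and rbcL is the gene farthest left (-0.38).

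Among the photosystem II genes, psbB stood highest at 22 °C. It encodes CP47, an inner antenna protein that passes excitation energy to the reaction centre. Its signal was 50.6 in high and 362 in low R:FR at 16 °C, a log2 change of 2.84 (local SD 0.26), and 132 and 534 at 22 °C, a change of 2.02 (local SD 0.21). Both low R:FR arrays were thus above both high R:FR arrays. Next to psbB lies psbT, a small photosystem II subunit gene, with signals of 20.3 and 162 at 16 °C (log2 3.00, local SD 0.31) and of 67 and 173 at 22 °C (log2 1.37, local SD 0.27). Here too both low R:FR signals exceeded both high R:FR signals. Read from the opposite strand between psbT and psbH is psbN, which encodes an assembly factor of photosystem II. Its signals were 39.4 and 128 at 16 °C (log2 1.70, local SD 0.36) but 54.6 and 56.9 at 22 °C (log2 0.06), so that 1 array stood above the other 3.

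The reaction centre genes of photosystem II had smaller light responses at 16 °C. The gene of the D2 protein, psbD, had signals of 327 and 516 at 16 °C (log2 0.66, local SD 0.24) and of 443 and 1015 at 22 °C (log2 1.20, local SD 0.18). The array of low R:FR at 22 °C was the highest. The gene of the D1 protein, psbA, had signals of 34.7 and 44.8 at 16 °C (log2 0.37, local SD 0.43) and of 47.9 and 63.5 at 22 °C (log2 0.41, local SD 0.34), changes no larger than about 1 local SD. The D1 protein is replaced all the time as light damages it. Its probe set gave 1 of the dimmest sets of signals among the members, and signals of different probe sets cannot be set against each other as transcript levels.

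The other photosystem II genes passed 2-fold at neither temperature, but most had a larger response at 22 than at 16 °C. The gene of CP43, psbC, the other inner antenna protein, had signals of 681 and 784 at 16 °C (log2 0.20) and of 1259.7 and 1721 at 22 °C (log2 0.45, local SD 0.20). The gene of the alpha subunit of cytochrome b559, psbE, had 732 and 686 at 16 °C (log2 -0.09) and 1114 and 1466 at 22 °C (log2 0.40, local SD 0.20). For the small subunit gene psbK the signals were 938.5 and 954 at 16 °C (log2 0.02) and 1225 and 2139 at 22 °C (log2 0.80, local SD 0.19). In these 3 genes the arrays of 22 °C, and above all that of low R:FR, were the highest. Over all 14 subunit genes of photosystem II the median log2 change was 0.12 at 16 °C and 0.43 at 22 °C. The response was larger at 22 °C for 11 of the 14, with psbB, psbT and the bright psbM (0.12 at 16 and -0.17 at 22 °C) as the exceptions.

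Of the 5 photosystem I subunit genes 4 had the larger response at 16 °C, and 1 was past 2-fold, at both temperatures. PsaC carries the last iron-sulphur clusters, from which electrons pass to ferredoxin, and its gene psaC had signals of 26.1 and 152 at 16 °C (log2 2.54, local SD 0.37). At 22 °C they were 45.9 and 116 (log2 1.34, local SD 0.30). The large reaction centre genes had small changes. For psaA the signals were 1125 and 1645 at 16 °C (log2 0.55, local SD 0.16) and 1504.5 and 1921 at 22 °C (log2 0.35, local SD 0.17). For psaB they were 2864 and 2825 at 16 °C (log2 -0.02) and 2997 and 3222 at 22 °C (log2 0.10, local SD 0.14). Low R:FR was higher at both temperatures for psaC and psaA, whereas the 4 signals of psaB lay close together. The small subunit gene psaI had signals of 256 and 507.5 at 16 °C (log2 0.99, local SD 0.24), just short of 2-fold, and 520.4 and 776 at 22 °C (log2 0.58). The remaining small subunit gene, psaJ, was at log2 0.46 and 0.06.

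The 2 assembly factor genes of photosystem I differed from each other. Ycf3 and Ycf4 help to put photosystem I together and are not part of the finished complex. The signals of ycf3 were 33 and 473 at 16 °C, a log2 change of 3.84 (local SD 0.30) and the largest of all members, and 94.6 and 218 at 22 °C (log2 1.21, local SD 0.25). Both low R:FR arrays were above both high R:FR arrays. In contrast ycf4 was at log2 0.33 and 0.50.

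For the cytochrome b6f complex, 3 of 6 genes were at least 2-fold higher at 16 °C and 0 of 6 at 22 °C. The gene of the small subunit PetN, petN, had signals of 19.6 and 187 at 16 °C (log2 3.25, local SD 0.39) and of 51.2 and 75.4 at 22 °C (log2 0.56, local SD 0.28). Subunit IV is encoded by petD, with 17 and 154 at 16 °C (log2 3.18, local SD 0.46) and 23.6 and 45.5 at 22 °C (log2 0.95, local SD 0.36). The lowest signal of petD lies below 17.9, the highest signal of the controls for bacterial transcripts that plants lack, which makes the size of its ratio uncertain. Another small subunit gene, petG, had 41.6 and 183 at 16 °C (log2 2.13, local SD 0.32) and 72.9 and 128 at 22 °C (log2 0.81, local SD 0.26). In these 3 genes the array of low R:FR at 16 °C was the highest of the 4. The neighbouring small subunit gene petL had signals of 169 and 293 at 16 °C (log2 0.80, local SD 0.26), but 422 and 371 at 22 °C (log2 -0.18). The genes of the large cytochromes had nearly equal signals on all arrays. For petA, the gene of cytochrome f, they were 2029 and 2061 at 16 °C (log2 0.02) and 2304 and 2199.9 at 22 °C (log2 -0.07). For petB, the gene of cytochrome b6, they were 2883 and 2904 (log2 0.01) and 3058 and 3288 (log2 0.10).

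For ATP synthase, 2 of 6 genes were past 2-fold at 16 °C and 4 of 6 at 22 °C, all of them from 1 operon. At 22 °C, those of atpA, atpH and atpI did not hold under all processing. The proton ring subunit gene atpH had signals of 158 and 406 at 16 °C (log2 1.36, local SD 0.28) and of 339 and 690.5 at 22 °C (log2 1.02, local SD 0.20). The gene of the membrane subunit a, atpI, had 18.5 and 124 at 16 °C (log2 2.74, local SD 0.41) and 37.9 and 85.4 at 22 °C (log2 1.17, local SD 0.30). In both genes the 2 low R:FR arrays were the highest. The peripheral stalk gene atpF had 117 and 172 at 16 °C (log2 0.55, local SD 0.29) and 168 and 524.5 at 22 °C (log2 1.64, local SD 0.22). The gene of the alpha subunit of the catalytic head, atpA, had 515 and 683 at 16 °C (log2 0.41, local SD 0.20) and 793 and 1613 at 22 °C (log2 1.02, local SD 0.19). For atpF and atpA, the array of low R:FR at 22 °C stood above the others. The catalytic beta subunit gene atpB, the brightest member, had 4358 and 4591 at 16 °C (log2 0.08) and 4250.0 and 4353 at 22 °C (log2 0.03), and its partner atpE was at log2 0.11 and -0.03. All signals of atpB lie above 3280, the brightest spiked signal, so small changes there are outside the range that the spiked transcripts cover.

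The single Rubisco gene of the plastid, rbcL, had the lowest response of all members at 16 °C and 1 of the 10 past 2-fold at 22 °C. Its signals were 71.3 in high and 54.9 in low R:FR at 16 °C (log2 -0.38, local SD 0.35), and 135 and 319 at 22 °C (log2 1.24, local SD 0.24). The array of low R:FR at 16 °C was thus its lowest and that of low R:FR at 22 °C its highest, and the change at 16 °C was of the size of the local SD. Of the 3 genes below 0 at 16 °C, rbcL, psbE (-0.09) and psaB (-0.02), it was the lowest.

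The responses were then set out by operon, since genes of an operon share precursor transcripts. In the psbB operon (psbB, psbT, psbH, petB and petD) the 5 changes at 16 °C ranged from 0.01 to 3.18. The genes at its start, psbB and psbT, and at its end, petD, were past 2-fold, while psbH (0.08) and petB (0.01) between them were near 0. At 22 °C the same operon ranged from 0.10 to 2.02, again with psbB and psbT highest, petD next (0.95) and psbH (0.24) and petB (0.10) lowest. The operon of rps2, atpI, atpH, atpF and atpA had its higher changes at the start at 16 °C, with 1.94 for the ribosomal protein gene rps2 and 2.74 for atpI, then 1.36 for atpH, 0.55 for atpF and 0.41 for atpA at the end. At 22 °C all 5 were past 2-fold, and atpF was the highest.

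**Figure D3:**
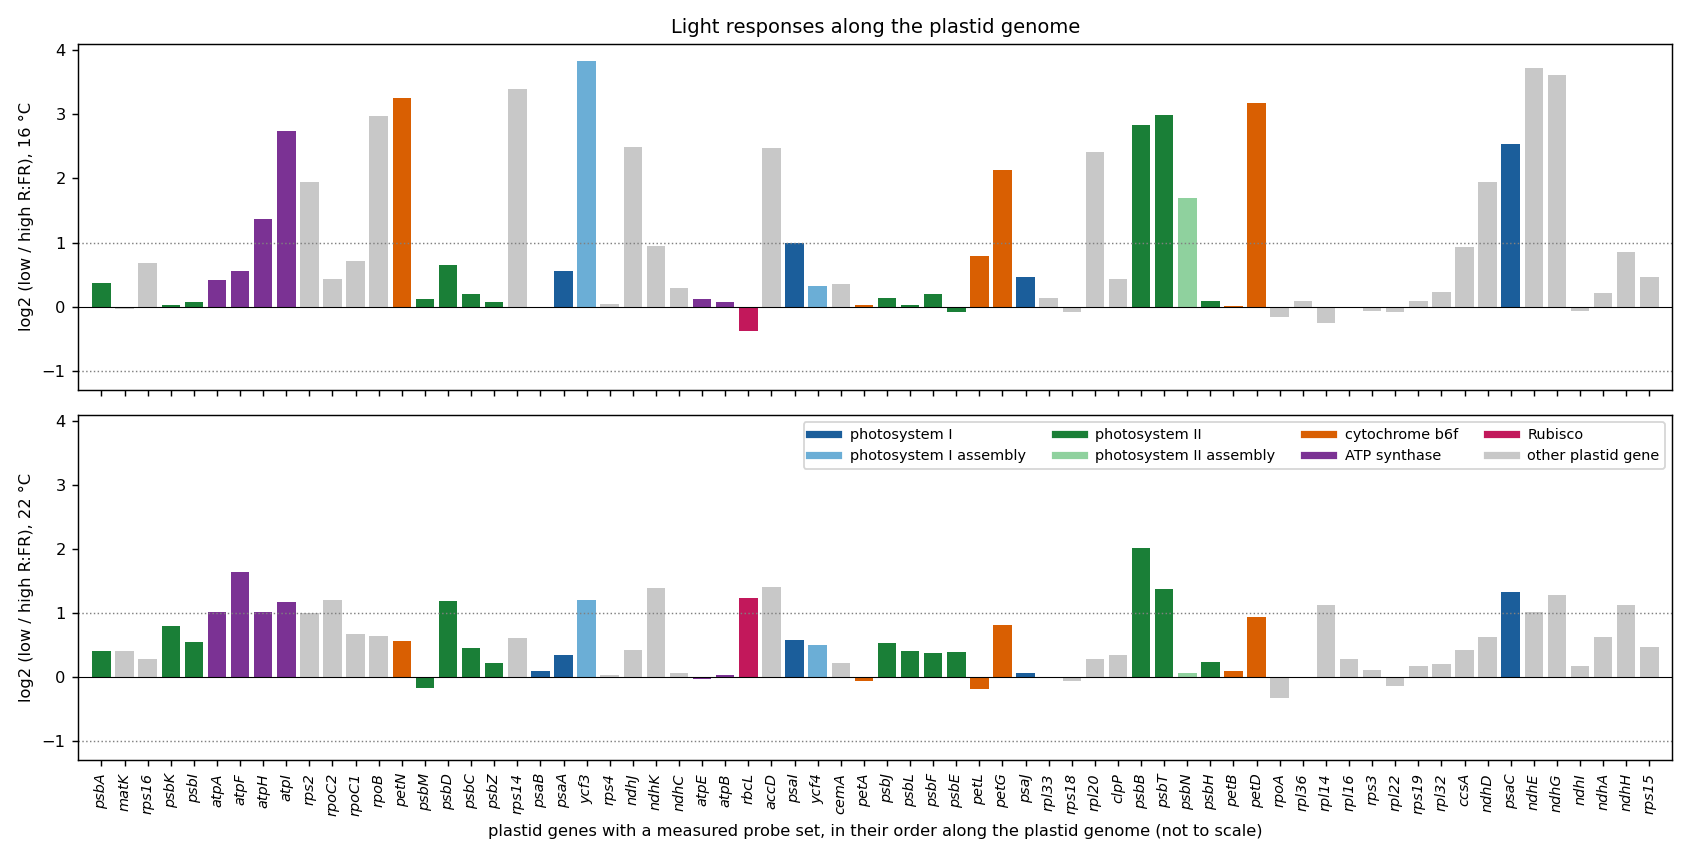
Log2 ratio of low to high R:FR for the 68 measured plastid genes in their order along the plastid genome (not to scale), at 16 °C (top) and 22 °C (bottom); members are coloured by complex and other plastid genes are grey. High bars stand next to bars near 0 within operons, as for petD (3.18) and petB (0.01) or rps14 (3.40) and psaB (-0.02) at 16 °C.

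Other operons were split as well. In the operon of psaA, psaB and rps14, the last gene, which encodes a ribosomal protein, was at log2 3.40 at 16 °C, against 0.55 and -0.02 for psaA and psaB. At 22 °C these were 0.61, 0.35 and 0.10. The operon of accD, psaI, ycf4, cemA and petA also had its highest change at the start, and went at 16 °C from 2.48 for accD, a gene of fatty acid synthesis, through 0.99, 0.33 and 0.36 to 0.02 for petA. At 22 °C it went from 1.41 for accD through 0.58, 0.50 and 0.23 to -0.07. In the operon of petL, petG, psaJ, rpl33 and rps18 only petG was past 2-fold, and the ribosomal protein genes rpl33 (0.14) and rps18 (-0.08) were near 0 at 16 °C. The gene psaC lies among NDH genes, and at 16 °C its change of 2.54 stood beside 3.72 for ndhE, 3.62 for ndhG and 1.95 for ndhD. Farther from it in that operon were ndhH (0.85), ndhA (0.21) and ndhI (-0.06). Probe set brightness also differed within these operons. In high R:FR at 16 °C, signals rose from 45.6 for accD through 256, 662 and 904 to 2029 for petA. Those of petD (17) and rps14 (21.2) lay far below petB (2883) and psaB (2864), though ndhH, short of 2-fold, was also dim (34.4). The parts of operon position and brightness in these splits cannot be told apart here and were not tested.

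In other operons the changes lay closer together. The 4 genes psbE, psbF, psbL and psbJ, which encode cytochrome b559 and 2 small photosystem II subunits, ranged from -0.09 to 0.20 at 16 °C and from 0.38 to 0.53 at 22 °C. The pair psbK and psbI was at 0.02 and 0.07 at 16 °C and at 0.80 and 0.55 at 22 °C. The pair atpB and atpE lay between -0.03 and 0.11 at both temperatures. Less close was the operon of psbD, psbC and psbZ, where the change was largest for psbD and smallest for psbZ (0.06 and 0.23) at both temperatures.

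The light response was larger for the dimmer members. Across the 35 members, the mean log2 signal at 22 °C and the light response at 16 °C, which share no array, were correlated with r = -0.75 (Pearson) and rho = -0.68 (Spearman). The mean log2 signal at 16 °C and the response at 22 °C had an r of -0.63 and a rho of -0.68. Over all 13648 measured probe sets the same r values were -0.05 and -0.13. Genes share the 4 arrays and operon precursors, so they are not independent points, and no p-value is given. Of the 17 dimmer members by signal at 22 °C, 10 were at least 2-fold higher in low R:FR at 16 °C, with a median of 1.70. Of the 17 brighter ones none was, and the median was 0.08. Among measured probe sets outside the plastid genome in the same signal ranges, 168 of 11378 dimmer and 2 of 616 brighter ones were. By signal at 16 °C, 9 of the 17 dimmer and 1 of the 17 brighter members (atpA) were at least 2-fold higher at 22 °C. Outside the plastid genome, 52 of 9204 probe sets in the dimmer range (0.565%) and 0 of 1071 in the brighter range were. Among the dimmer members short of 2-fold at both temperatures were psbA (0.37 and 0.41), petL (0.80 and -0.18) and psbL, a small photosystem II subunit gene (0.02 and 0.40). Plastid genes outside the members also included dim ones with large changes at 16 °C, such as rps14 (3.40) and ndhE (3.72). Bright ones such as rps4 (0.03) and ndhI (-0.06) were near 0. Some dim ones, such as rps15 (0.46), were short of 2-fold, and no correlation was computed for these genes.

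**Figure D4:**
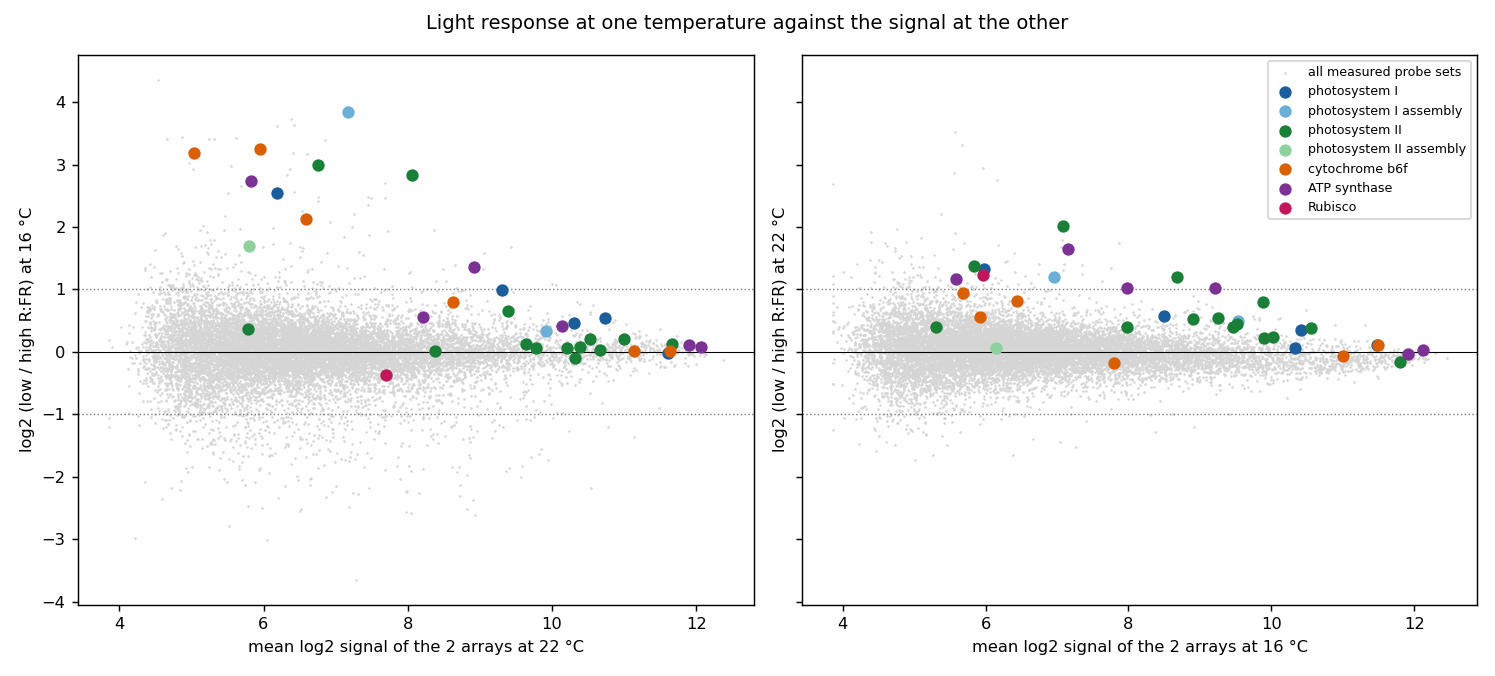
Log2 ratio of low to high R:FR at 16 °C against the mean log2 signal at 22 °C (left), and at 22 °C against the mean log2 signal at 16 °C (right), for the 35 members (coloured by complex) and all 13648 measured probe sets (grey). Members past 2-fold, above the upper dotted line, lie at low and middle signals, and the brightest members lie near 0.

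The series asked which genes low R:FR regulates at each growth temperature, so both responses were compared. The response at 16 °C minus that at 22 °C was at least 1 on the log2 scale for 8 of the 35 genes and at most -1 for 2. Over all measured probe sets 2.31% and 4.16% were so far apart, and over all 68 measured plastid genes 23.5% and 4.41%. The 8 were petN (2.69, local SD 0.45), ycf3 (2.63, local SD 0.39), petD (2.24, local SD 0.55), psbN (1.64), psbT (1.63), atpI (1.57), petG (1.32) and psaC (1.20). The 2 were rbcL (-1.62, local SD 0.41) and atpF (-1.09, local SD 0.34). The median difference over the 35 was 0.04, with 18 above and 17 below 0. Where values under the 50th percentile were floored, atpI (0.54), psbT (0.73) and psaC (0.67) did not pass 1, since their lowest signals are dim.

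By complex, the median difference was 1.15 for the 6 cytochrome b6f genes and 0.40 for the 5 photosystem I subunit genes. It was 0.09 for the 6 ATP synthase genes and -0.21 for the 14 photosystem II subunit genes. These medians rest on 1 array per condition and on few genes, and differences between complexes were not tested. The 2 light responses of the 35 genes had an r of 0.55 and a rho of 0.50, against 0.17 and 0.10 over all measured probe sets. These responses share no array, but both went with the members' mean signal at the other temperature (r of -0.75 and -0.63). The genes are not independent points, and the part of signal in this correlation was not tested.

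The temperatures were also compared within each light condition, on the same 4 arrays, so these values are not independent of those above. In high R:FR, 34 of the 35 genes were lower at 16 than at 22 °C, with a median log2 difference of -0.47 against -0.04 for all measured probe sets. Of these, 8 were at least 2-fold lower and 0 higher, against a background of 3.17% lower and 1.11% higher. They were psbT (-1.72, local SD 0.33), ycf3 (-1.52), petN (-1.39), psbB (-1.38), petL (-1.32), atpH (-1.10), atpI (-1.03) and psaI (-1.02). With arrays scaled to the same median, with values floored at their 50th percentile, or with a pseudocount, 5 were at least 2-fold lower. The gene above 0 was atpB, at 0.04. All 68 measured plastid genes had a median of -0.47 too, with 60 below 0 and 23.5% at least 2-fold lower. The lower signals at 16 °C were thus not particular to the members.

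In low R:FR members lay in both directions. At 16 °C, 4 were at least 2-fold higher than at 22 °C and 6 lower, where the background was 1.62% higher and 6.61% lower. Of all 68 measured plastid genes 11.8% were higher and 11.8% lower. Higher were petD (1.76, local SD 0.47), petN (1.31), psbN (1.17) and ycf3 (1.11). Lower were rbcL (-2.54, local SD 0.42), atpF (-1.61), atpA (-1.24), psbK (-1.16), psbC (-1.14) and psbE (-1.10). With arrays scaled to the same median these counts were 4 and 3, and with quantile normalization 4 and 8. Of the 14 photosystem II subunit genes 13 were lower at 16 °C, with a median of -0.57. Of the 6 cytochrome b6f genes 3 lay above 0, with a median of 0.21. All plants were harvested at the same age, so a difference in growth stage cannot be told apart from temperature.

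**Figure D5:**
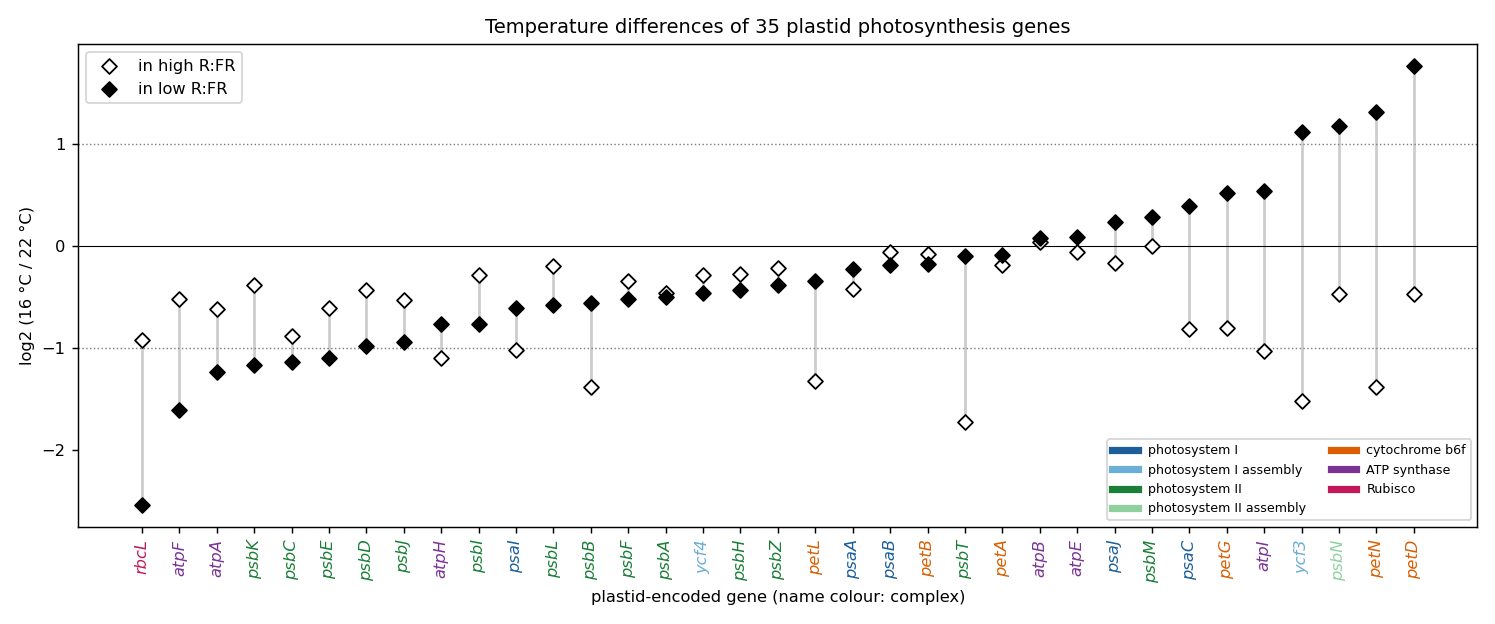
Log2 ratio of 16 to 22 °C for the 35 members in high (open) and low R:FR (filled), ordered by the value in low R:FR; gene names are coloured by complex and dotted lines mark 2-fold. The open points lie below 0 for 34 genes, while the filled points run from -2.54 (rbcL) to 1.76 (petD).

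A model over all 4 arrays gives a test of each main effect. In limma with light and temperature as additive terms, fitted on all 13648 measured probe sets, the 1 residual degree of freedom is the interaction. The error of each gene combines its own interaction with a prior fitted by signal over all measured probe sets, worth 5.18 degrees of freedom. An SE therefore rests on that prior more than on the gene's own departure from additivity. The light effect passed a Benjamini-Hochberg adjusted p of 0.05 for 0 of the 35 genes, with a background of 0.0513% higher and 0 lower. At an unadjusted p under 0.05 it was 17 of 35 higher and 0 lower, against 3.93% higher and 2.67% lower. The smallest adjusted p of the members was 0.0532, for psbB (log2 2.43, SE 0.23), whose response was higher at both temperatures. Across the alternatives in limma it ranged from 0.0194 to 1. The temperature effect passed for psbC, lower at 16 °C in both lights (log2 -1.01, SE 0.13, adjusted p 0.0429), and for no gene in the other direction, against 1.05% lower and 0.352% higher. The smallest adjusted p of the members for temperature ranged from 0.0259 to 0.54 across the alternatives. At an unadjusted p under 0.05 it was 19 lower and 0 higher, against 12.9% lower and 9.53% higher. Genes with a large difference between the temperatures, such as ycf3 (log2 2.52, SE 0.55, adjusted p 0.454), have a large error in this model by construction.

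Other plastid genes were set beside the members. Of the 9 measured NDH genes, which encode a complex of cyclic electron flow, 4 were at least 2-fold higher in low R:FR at 16 °C and 4 at 22 °C, with medians of 0.95 and 0.64. Of the 24 other measured plastid genes, mostly of ribosomal proteins and the plastid RNA polymerase, 5 and 4 were, with medians of 0.29 and 0.29. Differences between these groups were not tested. Measured against the median of all 68 plastid genes in place of 0, the members' medians were -0.02 at 16 °C and 0.08 at 22 °C. By that reference 9 members remained at least 2-fold higher at 16 °C and 2 at 22 °C.

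Nuclear genes of the same complexes, and the Rubisco activase gene RCA listed with them, were compared from a list of 36. Of these, 7 had a named probe set, all measured. RCA, also the green tissue marker above, was the only gene listed for Rubisco among them, so no nuclear subunit gene of Rubisco was compared. None of the 7 was past 2-fold between the light conditions at 16 or 22 °C, and the medians were -0.04 and -0.11. The photosystem I genes PSAE1 (signals 3789 to 4117) and PSAN (2223 to 2451), the photosystem II genes PSBW (2292 to 2539) and PSBY (3521 to 4095), the ATP synthase gene ATPC1 (3080 to 3629) and RCA differed by at most 0.13 on the log2 scale between light conditions. All 6 are bright, as are the plastid genes with the smallest changes. The dim ATPC2, which encodes a second gamma subunit of ATP synthase, was at log2 0.41 at 16 °C and -0.99 at 22 °C. It was at least 2-fold lower at 16 than at 22 °C in high R:FR (28.2 and 60.9). The sigma factors and other nuclear genes of plastid transcription (10 listed) and the RNA processing factors (5 listed) had no named probe set and were not analysed here.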

How the data were processed

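Affymetrix arrays of 4 samples, 1 per condition, were analysed. The authors deposited a linear intensity for each probe set. MAS5 is named as the tool in the submitters' processing notes, without version or settings. The 2% trimmed mean was 100.01 on each array, so the arrays had been scaled as a whole.

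From these, arrays were brought to 1 common 2% trimmed mean. Values below 14.5, the 30th percentile, were raised to it before log2. Apart from 64 controls there were 22746 probe sets, and the 13648 whose mean log2 reached the 40th percentile (signal 23.2) are called measured. Probe sets were named through the array annotation and RefSeq's gene table (TAIR10.1). Coordinates are not printed because no build is stated for the values. Operons follow textbook knowledge.

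Calls are a rule of size, 2-fold, without a test, for 5 comparisons (light at each temperature, temperature in each light, and the difference of the light responses). The only test was limma 3.58.1 in R 4.3.3 (lmFit, eBayes with trend, Benjamini-Hochberg over all measured probe sets), tested on simulated data. Other steps used Python 3.11.15 with pandas 2.3.3. The local SD is the scaled median absolute deviation. The number of arrays limits the precision. The p-values set each main effect against an error taken from departures from additivity between these arrays, not from replicates. These departures are the gene's own and, through the prior, those of other probe sets.

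The members, lists and operons were chosen with earlier results of these data known. All 4 signals are given for members past 2-fold in a light or temperature comparison, the brightest and the dimmest member, and 9 core genes (psaA, psaB, psbA, psbD, petA, petB, atpA, atpB and rbcL). Alternatives were other scalings, floors, filters and thresholds, a pseudocount, unmarked probe sets, the plastid median as reference, and eBayes without trend or with a robust prior.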

Additional observations from a re-analysis of the deposited data

Results flagged for a closer look

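In 8 members the same contrast had opposite signs in the 2 other conditions, at least 1 apart on the log2 scale. None of these differences was tested, since each condition has 1 array. The light response of rbcL was -0.38 at 16 °C and 1.24 at 22 °C, a difference of -1.62. For the other 7 it was the temperature difference, lower at 16 °C in high R:FR and higher at 16 °C in low R:FR. Some of these values were of about the size of the local SD, so their sign is uncertain. In low R:FR these were psaC (0.39, local SD 0.47) and atpI (0.53, local SD 0.47). In high R:FR they were petD (-0.47, local SD 0.48) and psbN (-0.47, local SD 0.39). By construction, the gaps below equal the differences of the light responses given above. The gap between the 2 light conditions was 2.69 for petN, 2.63 for ycf3, 2.24 for petD, 1.64 for psbN, 1.57 for atpI, 1.32 for petG and 1.20 for psaC. In all 7 the lowest of the 4 signals was that of high R:FR at 16 °C, between 17 and 41.6, and where values were floored at their 50th percentile the gaps of atpI (0.54) and psaC (0.67) were under 1.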

How the results depend on the processing

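The members at least 2-fold higher in low R:FR at 16 °C numbered 8 (of 32 past a filter at the 60th percentile) to 10 under the alternatives that kept that threshold, 9 at 3-fold and 13 at 1.5-fold, and the cause of the shifts below was not tested unless the alternative's own construction shows it. Unmarked probe sets, no filter, the 10th percentile as floor and values as deposited could hardly change that count. All members are unmarked, measured and above the floor, and the deposited arrays already shared 1 trimmed mean. Members higher in low R:FR at 22 °C numbered 8 in place of 10 with the same median or a pseudocount. They numbered 9 (of 32) with a filter at the 60th percentile, 2 at 3-fold and 13 at 1.5-fold. Relative to the plastid median there were 2, and the medians were -0.0196 at 16 and 0.0783 at 22 °C. For temperature in high R:FR, lower members numbered 5 in place of 8 with the same median, the 50th percentile as floor or a pseudocount, 2 relative to the plastid median (median -0.0015), 1 at 3-fold and 14 at 1.5-fold. For temperature in low R:FR, lower members numbered 3 in place of 6 with the same median and relative to the plastid median, 2 at 3-fold and 11 at 1.5-fold, and higher ones 1 in place of 4 at 3-fold. Of the gaps between both light responses, 5 in place of 8 were past 1 with the 50th percentile as floor. With the threshold of the gap set at 3-fold in place of 2-fold, 5 gaps lay that far above 0 and 1 that far below. With it set at 1.5-fold these counts were 10 and 4. In limma, the light effect passed for 1 gene in place of 0 with the same median, quantile normalization, a pseudocount and a robust prior. The temperature effect passed for 6 lower genes in place of 1 with quantile normalization, for 2 with a robust prior, and for 0 with no filter, no trend, a pseudocount, or the 10th or 50th percentile as floor. No named member past 2-fold changed sign under another scaling, floor or pseudocount. For light and temperature ratios a floor or pseudocount cannot reverse the sign. Scaling arrays with medians as close as 36 to 40.6 cannot reverse a 2-fold ratio either. Signals near the floor limit the size of the ratios of petD, atpI, petN and psbT.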
